A study of Mus musculus with 12 samples.

Results

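The receptors of the ErbB family and the PI3K, AKT and mTOR kinases that act below them were followed through 9 genes, Egfr, Erbb2, Erbb3, Erbb4, Grb2, Pik3r1, Pik3ca, Akt1 and Mtor, in RNA-seq of mouse brain. They are receptor tyrosine kinase pathway genes around the hubs named by the network analysis of the study, EGFR itself being among those hubs. The 9 genes were taken from the count table by gene symbol, not by their values. All 9 were found among the 24062 genes of the table, and all 9 were among the 15440 genes with enough counts to be tested.

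The study asked how P301S tau and a reduced dose of TIA1, an RNA-binding protein of stress granules, bear on the transcriptome of the brain. Total RNA libraries were made from 4 groups of 3 mice at 9 months of age, from tissue labelled as brain and described in the methods as cortex. WT mice carried neither change, Tia1+/- mice carried 1 disrupted Tia1 allele, PS19 mice carried a human MAPT transgene with the P301S mutation, and P301S Tia1+/- mice carried both. The mouse Prnp promoter drives the transgene, so its expression is not limited to 1 cell type, and the Tia1 allele is inherited through the germline and is present in every cell. Groups were read from the library titles. For the Tia1+/- and P301S Tia1+/- mice, what GEO lists under genotype is exchanged relative to the titles. If the genotype entries were right, these groups would change places. Every comparison with either group, the interaction included, therefore depends on the titles.

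The ErbB receptors are tyrosine kinases in the plasma membrane that pair up when an EGF-like or neuregulin ligand binds. Adaptors such as GRB2 and the regulatory subunit of PI3K dock on the phosphorylated receptors, PI3K makes a phospholipid that brings AKT to the membrane, and AKT in turn acts on mTOR, a kinase that governs protein synthesis and autophagy. In the brain, EGFR is known from progenitors and astrocytes, ERBB3 from the oligodendrocyte lineage, and ERBB4 from interneurons, where it receives neuregulin.

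The libraries held between 11978962 and 19146484 counts. Tia1, the targeted gene, had a mean CPM of 82.0 ± 10.3 (WT), 73.5 ± 3.87 (PS19), 68.0 ± 10.3 (Tia1+/-) and 74.7 ± 2.76 (P301S Tia1+/-), with SD and n = 3 each. CPM is the count scaled for library size with factors from TMM, the trimmed mean of M-values. Neither Tia1+/- against WT (log2 fold change −0.27, adjusted p = 0.239 in edgeR) nor P301S Tia1+/- against PS19 (0.02, adjusted p = 0.934) passed the threshold, so the level of Tia1 did not check the labels. Xist had 3304 to 5693 counts in the 6 libraries of the Tia1+/- and P301S Tia1+/- groups and 0 to 13 in the other 6, while 4 Y-linked genes summed to 0 to 5 and 3363 to 4944 counts, although the methods describe male mice. The study reads higher Xist and lower Y-linked levels as an effect of Tia1 heterozygosity and reports the same by qPCR in separate, younger males. In the libraries used here, sex and Tia1 genotype cannot be told apart. The markers of excitatory cortical neurons were present in every library (summed level of 7 genes, 1003 to 2411 CPM). The summed level of 10 olfactory bulb genes was 1187 CPM in WT replicate 1, 40.6 and 175 in the other WT libraries, 8.80 to 156 in Tia1+/-, 8.002 to 20.3 in PS19 and 749 to 891 in P301S Tia1+/-. That of 8 striatal genes was 1860 CPM in Tia1+/- replicate 3 and 130 to 341 in the other libraries. Where a call of a member changed without WT replicate 1 or without both it and Tia1+/- replicate 3, that is stated beside the member or in the later paragraph on libraries left out. In bulk tissue, fewer cells of a type and less RNA per cell cannot be told apart.

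Members differed most between P301S Tia1+/- and PS19, where Grb2, Mtor, Erbb2 and Akt1 stood higher in every P301S Tia1+/- library than in any PS19 library, and Egfr, Erbb4 and Pik3r1 stood lower. With all 12 libraries in 1 fit, none of the 9 members passed an adjusted p of 0.05 (edgeR quasi-likelihood test, Benjamini-Hochberg over all genes tested) in any of 6 comparisons. These were PS19 with WT, Tia1+/- with WT, P301S Tia1+/- with PS19, with Tia1+/- and with WT, and the interaction, which is the effect of Tia1+/- in PS19 mice minus its effect in WT mice. The shares of all genes tested that passed in these comparisons were 0%, 0.712%, 0.24%, 0%, 1.31% and 0.00648%. At an unadjusted p under 0.05 the members counted 1, 2, 5, 2, 3 and 3 of 9, beside 16.3%, 19.1%, 19.3%, 15.6%, 18% and 22.9% of all genes. DESeq2 called 2 members in P301S Tia1+/- against PS19, Grb2 and Mtor, beside 5.77% of genes, and Grb2 alone in the interaction, beside 8.08%. It called no member in the other comparisons, where it called 2.89%, 6.74%, 2.62% and 7.15% of genes. Levels did not overlap between the groups for 7 of 9 members in P301S Tia1+/- against PS19, where 38.5% of all genes did not overlap. The same count was 2 of 9 in PS19 against WT (20.8% of genes), 2 of 9 in Tia1+/- against WT (20%), 4 of 9 in P301S Tia1+/- against Tia1+/- (26%) and 1 of 9 in P301S Tia1+/- against WT (23.2%). The members with a log2 fold change above 0 numbered 4, 3, 5, 7, 5 and 6 of 9 in the 6 comparisons, beside 49%, 50.7%, 51.5%, 51.1%, 53.4% and 50.5% of all genes. The comparisons share libraries and are not independent of each other.

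**Figure D1:**
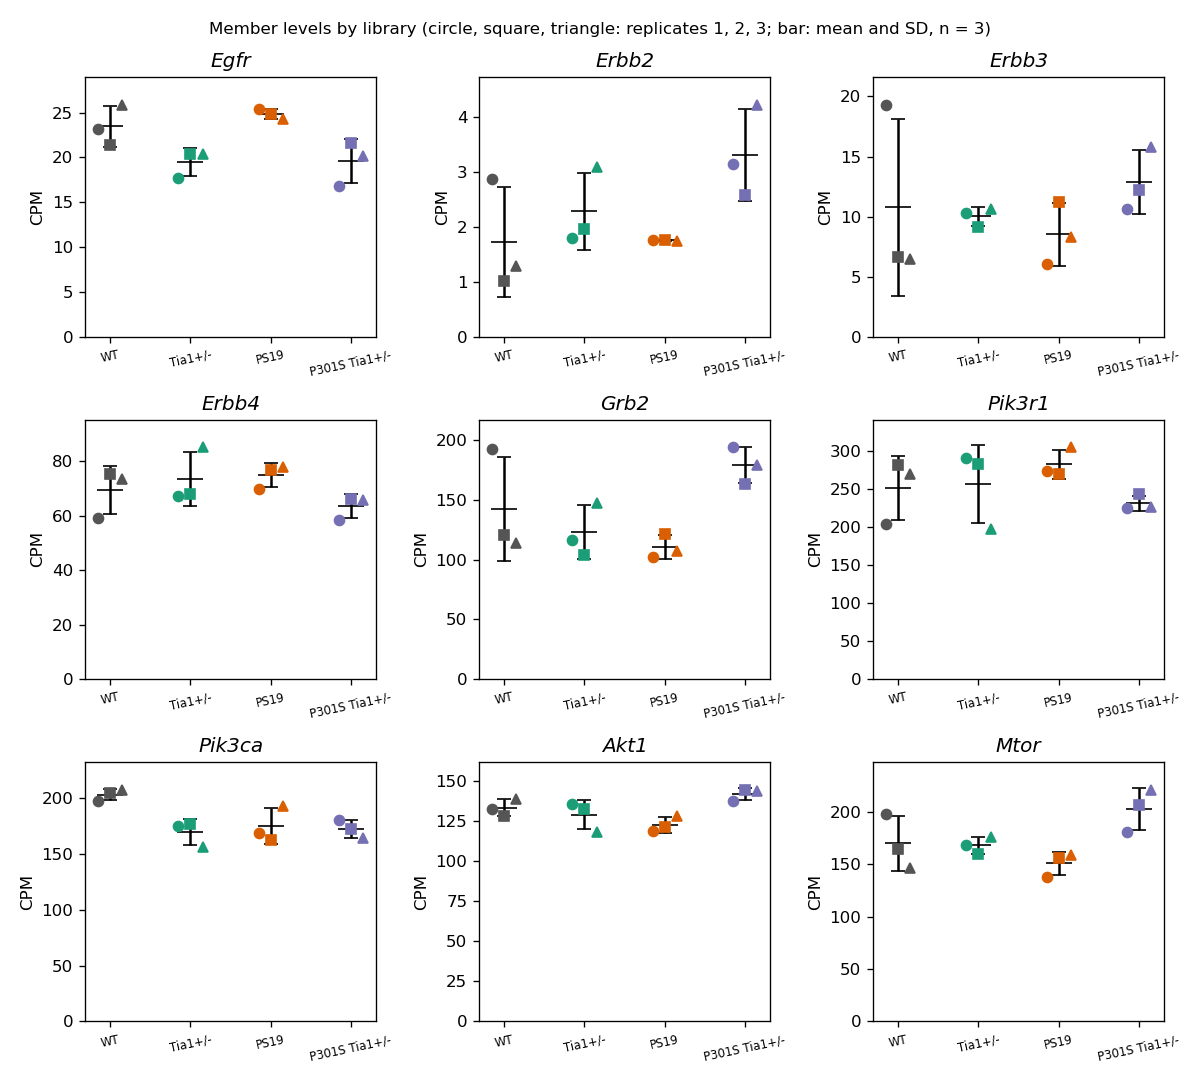
Level of each of the 9 genes in CPM (vertical axes, from 0) in the 4 groups (horizontal axes), with 1 symbol per library and bars for the mean and SD of 3 libraries. For Grb2, WT replicate 1 lies within the range of the P301S Tia1+/- libraries, and the 3 PS19 libraries lie within 1.75 to 1.77 CPM for Erbb2.

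Compared per length, as CPM per kb of annotated exon, the adaptor, both PI3K subunits and the kinases stood above all 4 receptors in every library. Grb2 had the highest mean level (47.5 ± 12.03 CPM per kb, SD over 12 libraries), followed by Akt1 (32.1 ± 2.20), Pik3r1 (25.4 ± 3.52), Pik3ca (19.8 ± 1.85) and Mtor (17.1 ± 2.46). Among the receptors the order was Erbb4 (5.69 ± 0.631), Egfr (1.93 ± 0.258), Erbb3 (1.75 ± 0.648) and Erbb2 (0.436 ± 0.177). Neighbours in this order kept their places in all 12 libraries, except Pik3r1 above Pik3ca in 11, Pik3ca above Mtor in 9 and Egfr above Erbb3 in 7 of 12. Egfr and Erbb3 therefore did not differ beyond their spread. The lengths are those of the union of GENCODE exons, from 2.916 kb in Grb2 to 12.355 kb in Erbb4, and transcripts used in this tissue may be shorter.

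**Figure D2:**
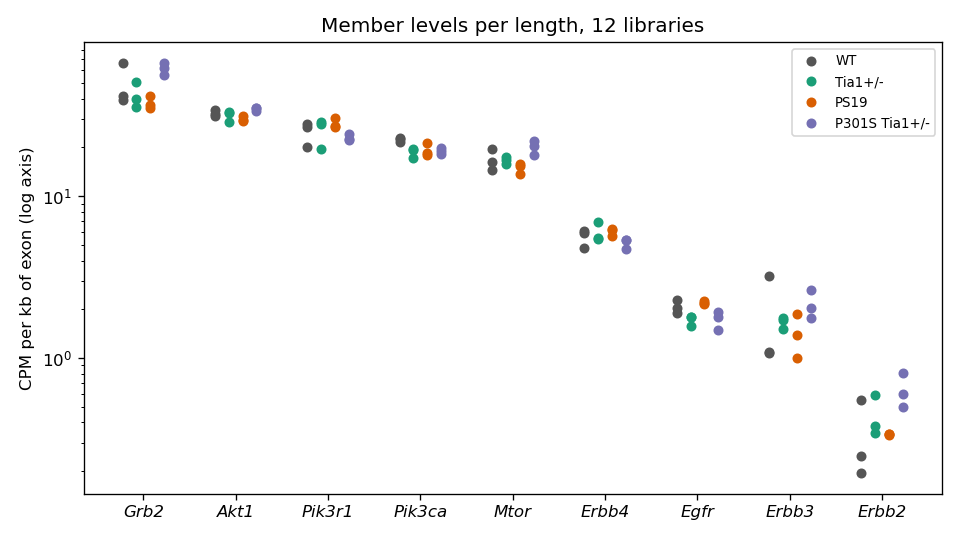
CPM per kb of exon on a log axis for the 9 genes, ordered by their mean, with 1 point per library and a colour per group. Erbb2 is the lowest gene in all 12 libraries and Grb2 the highest.

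The genes also differed in how much they varied. The coefficient of variation of CPM over the 12 libraries was 40.6% in Erbb2, 37.0% in Erbb3 and 25.3% in Grb2, above the median of all genes tested (16.9%). It was 14.4% in Mtor, 13.8% in Pik3r1, 13.4% in Egfr, 11.1% in Erbb4, 9.37% in Pik3ca and 6.84% in Akt1. Erbb2 rested on 12 to 71 counts per library and Erbb3 on 78 to 266, so counting error weighs most on this pair, whereas Egfr had at least 253 counts and the others at least 741 in every library.

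Egfr, the receptor for EGF and TGF alpha (chromosome 11, 16752203 to 16918158, plus strand, GRCm38), stood at 23.1, 21.4 and 25.9 CPM (WT), 25.4, 24.8 and 24.3 (PS19), 17.7, 20.4 and 20.4 (Tia1+/-) and 16.9, 21.7 and 20.2 (P301S Tia1+/-). Its level was lower in each Tia1+/- library than in any WT library, and lower in each P301S Tia1+/- library than in any PS19 library. The log2 fold change was −0.27 (95% interval −0.52 to −0.01, adjusted p = 0.237) in the first comparison and −0.34 (−0.59 to −0.09, adjusted p = 0.158) in the second, both by edgeR. The interaction was −0.08 (−0.43 to 0.28), and PS19 differed from WT by 0.08 (−0.17 to 0.33). The network analysis of the study gave EGFR more information flow in PS19 than in WT, and less in P301S Tia1+/- than in PS19. Information flow is a network measure and not the level of a gene, so the values here do not test it. The 6 libraries with a disrupted Tia1 allele by their titles are also the 6 with high Xist counts, and the part of sex in these Egfr levels cannot be told apart.

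Erbb2, a receptor with no ligand of its own that serves as a partner for the others (chromosome 11, 98412470 to 98437716, plus strand), had 2.88, 1.02 and 1.29 CPM (WT), 1.77, 1.76 and 1.75 (PS19), 1.79, 1.97 and 3.09 (Tia1+/-) and 3.14, 2.58 and 4.22 (P301S Tia1+/-). The 5 highest libraries were the 3 of P301S Tia1+/-, Tia1+/- replicate 3 and WT replicate 1. P301S Tia1+/- was 1.88-fold above PS19 without overlap (log2 fold change 0.91, interval 0.10 to 1.73, adjusted p = 0.221 in edgeR) and 1.91-fold above WT with overlap (0.93, 0.11 to 1.76, adjusted p = 0.219). Exons of Erbb2 share 9 bases with Mien1 on the other strand, and the strand setting of the counting is not given in the sources used here.

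Erbb3, a neuregulin receptor with a weak kinase that signals through PI3K (chromosome 10, 128567523 to 128589652, minus strand), stood at 19.3, 6.60 and 6.46 CPM (WT), 6.03, 11.2 and 8.31 (PS19), 10.3, 9.13 and 10.6 (Tia1+/-) and 10.6, 12.2 and 15.8 (P301S Tia1+/-). WT replicate 1 was the highest of all 12 libraries and the other WT libraries were among the lowest. Every comparison of groups overlapped, with log2 fold changes from −0.35 in PS19 against WT (interval −1.21 to 0.51) to 0.60 in P301S Tia1+/- against PS19 (−0.24 to 1.45, adjusted p = 0.404 in edgeR). Without WT replicate 1, PS19 against WT was at 0.38 (adjusted p = 0.609 in edgeR), and P301S Tia1+/- stood above WT by 0.99 on the log2 scale (adjusted p = 0.0352), compared with 0.26 (adjusted p = 0.765) with it. Without this library, 10.5% of all genes passed in P301S Tia1+/- against WT.

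Erbb4, the neuregulin receptor of interneurons (chromosome 1, 68032186 to 69108059, minus strand), stood at 59.3, 75.4 and 73.4 CPM (WT), 69.9, 76.8 and 77.9 (PS19), 67.4, 68.1 and 85.1 (Tia1+/-) and 58.4, 66.3 and 65.8 (P301S Tia1+/-). The P301S Tia1+/- libraries lay below all PS19 and all Tia1+/- libraries, while WT replicate 1 lay among them. The log2 fold change was −0.24 against PS19 (interval −0.50 to 0.02, adjusted p = 0.298 in edgeR) and −0.21 against Tia1+/- (−0.47 to 0.05, adjusted p = 0.406). Against WT it was −0.13 (−0.39 to 0.13). The value against Tia1+/- was −0.10 without Tia1+/- replicate 3, and that against WT was −0.22 without WT replicate 1, with adjusted p = 0.605 and 0.208 in edgeR. Without both libraries, edgeR called Erbb4 against PS19 (−0.26, adjusted p = 0.0192) and against WT (−0.25, adjusted p = 0.0379), beside 22.9% and 25.8% of genes.

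Grb2, the adaptor that links the receptors to the RAS activator SOS (chromosome 11, 115644045 to 115708597, minus strand), had the widest differences among the genes with high counts. Its level was 193, 121 and 114 CPM (WT), 103, 121 and 107 (PS19), 117, 104 and 148 (Tia1+/-) and 194, 164 and 179 (P301S Tia1+/-). The 4 highest libraries were WT replicate 1 and the 3 of P301S Tia1+/-, and the next was Tia1+/- replicate 3. P301S Tia1+/- was 1.62-fold above PS19 (log2 fold change 0.70, SE 0.193, adjusted p = 0.121 in edgeR and 0.0251 in DESeq2) and 1.46-fold above Tia1+/- (0.54, adjusted p = 0.245), in both cases without overlap. The interaction was 0.91 (interval 0.31 to 1.51, adjusted p = 0.0999 in edgeR and 0.0334 in DESeq2), and PS19 against WT was −0.37 (−0.79 to 0.06, adjusted p = 0.361 in edgeR). Without WT replicate 1 the latter was −0.08 (adjusted p = 0.878).

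Mtor, the kinase of both mTOR complexes (chromosome 4, 148448611 to 148557683, plus strand), stood at 198, 165 and 147 CPM (WT), 138, 156 and 159 (PS19), 168, 160 and 176 (Tia1+/-) and 181, 207 and 221 (P301S Tia1+/-). Its 4 highest libraries were the same 4 as for Grb2. P301S Tia1+/- was 1.34-fold above PS19 (log2 fold change 0.43, interval 0.17 to 0.69, adjusted p = 0.117 in edgeR and 0.0283 in DESeq2) and 1.21-fold above Tia1+/- (0.27, 0.01 to 0.53, adjusted p = 0.298 in edgeR), without overlap in either. The interaction was 0.44 (0.08 to 0.81, adjusted p = 0.153 in edgeR). Mtor encloses Angptl7 on the other strand, and the exons of the 2 genes share 0 bases.

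Pik3r1, the p85 alpha regulatory subunit that docks PI3K on receptors (chromosome 13, 101680563 to 101768217, minus strand), went the other way. Its level was 204, 282 and 271 CPM (WT), 274, 270.5 and 305 (PS19), 291, 283 and 198 (Tia1+/-) and 225, 243 and 226 (P301S Tia1+/-). The 5 lowest libraries were Tia1+/- replicate 3, WT replicate 1 and the 3 of P301S Tia1+/-, which are the 5 highest for Erbb2. P301S Tia1+/- lay below PS19 without overlap (log2 fold change −0.29, interval −0.63 to 0.05, adjusted p = 0.326 in edgeR).

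Pik3ca, the p110 alpha catalytic subunit (chromosome 3, 32397671 to 32468486, plus strand), was set apart by WT and not by P301S Tia1+/-. Its level was 197, 204 and 207 CPM (WT), 169, 163 and 193 (PS19), 175, 177 and 156 (Tia1+/-) and 180, 172 and 164 (P301S Tia1+/-). Each of the 3 WT libraries stood above all 9 others. The log2 fold change from WT was −0.26 in Tia1+/- (interval −0.45 to −0.07, adjusted p = 0.135 in edgeR and 0.0540 in DESeq2), −0.22 in PS19 (−0.40 to −0.03, adjusted p = 0.255 in edgeR) and −0.24 in P301S Tia1+/- (−0.42 to −0.05, adjusted p = 0.171 in edgeR). These 3 comparisons share the WT libraries. P301S Tia1+/- differed from PS19 by −0.02 (−0.21 to 0.16) and from Tia1+/- by 0.02 (−0.16 to 0.21). WT replicate 1 was the lowest of the WT libraries for this gene. Without WT replicate 1 and Tia1+/- replicate 3, edgeR called Pik3ca in P301S Tia1+/- against WT (−0.28, adjusted p = 0.0289), beside 25.8% of genes.

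Akt1, the kinase that PI3K recruits to the membrane (chromosome 12, 112653821 to 112674884, minus strand), varied least of the 9 genes. It stood at 132, 128 and 139 CPM (WT), 119, 121 and 128 (PS19), 135, 133 and 118 (Tia1+/-) and 138, 144 and 144 (P301S Tia1+/-). The P301S Tia1+/- libraries were above every Tia1+/- and PS19 library, and the PS19 libraries were below every WT library, the last by a margin of 128.28 against 128.32 CPM. P301S Tia1+/- was 1.16-fold above PS19 (log2 fold change 0.21, interval 0.05 to 0.37, adjusted p = 0.176 in edgeR), and the interaction was 0.26 (0.03 to 0.49, adjusted p = 0.181).

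**Figure D3:**
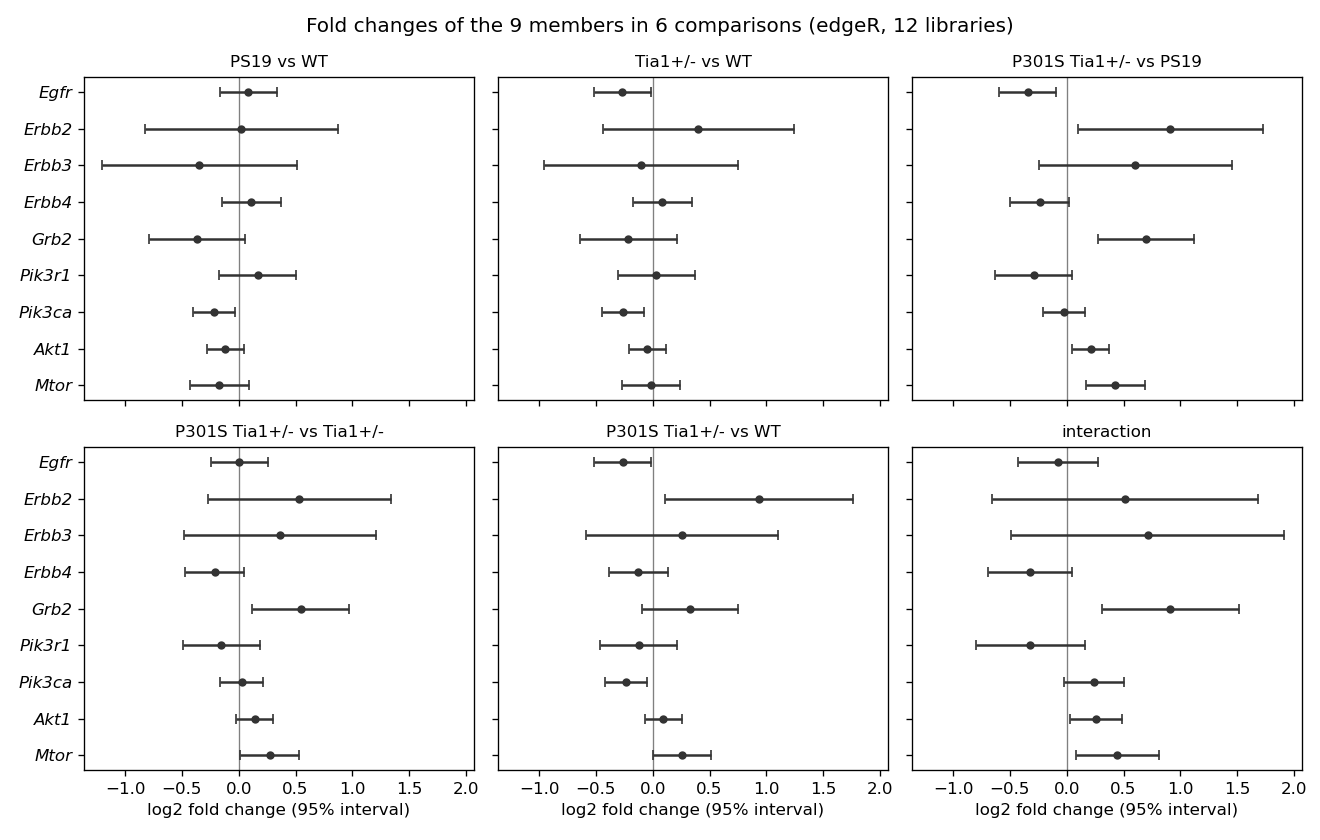
Log2 fold changes of the 9 genes with 95% intervals from the edgeR fit of 12 libraries, 1 panel per comparison. In P301S Tia1+/- against PS19 the intervals of Egfr, Erbb2, Grb2, Akt1 and Mtor exclude 0 before adjustment for the number of genes tested.

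In edgeR, the calls of Grb2 and Mtor changed with libraries outside the groups compared, and the cause of this was not tested. DESeq2 called both in P301S Tia1+/- against PS19 with all 12 libraries. WT replicate 1 is no part of P301S Tia1+/- against PS19, but it enters the estimate of the spread that all groups share. Without it, Grb2 (log2 fold change 0.70, adjusted p = 0.00966) and Mtor (0.43, adjusted p = 0.0177) passed the threshold in edgeR, beside 10.3% of all genes tested in that fit. With only the 6 libraries compared, 6 members passed beside 20.1% of genes, namely Egfr (−0.35), Erbb2 (0.91), Grb2 (0.70), Akt1 (0.21), Pik3r1 (−0.29) and Mtor (0.43). Without both WT replicate 1 and Tia1+/- replicate 3, the 6 that passed were Egfr, Erbb2, Erbb4, Grb2, Pik3r1 and Mtor, with Grb2 at an adjusted p of 0.000246, beside 22.9% of genes. Against Tia1+/-, Grb2 passed without WT replicate 1 (0.54, adjusted p = 0.0355), beside 6.11% of genes, and Grb2, Pik3r1 and Mtor passed without both libraries, beside 23.4%. Against WT, Erbb2 (1.52), Erbb3 (0.99), Grb2 (0.62) and Mtor (0.39) passed without WT replicate 1, beside 10.5% of genes. Without both libraries, 7 of 9 members passed against WT, all but Egfr and Akt1, beside 25.8% of genes. In the interaction, Grb2 (0.77) and Pik3r1 (−0.36) passed without both libraries, beside 13.5% of genes.

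The olfactory bulb genes also differed between P301S Tia1+/- and PS19. All 10 were higher in P301S Tia1+/- than in PS19, with a median log2 fold change of 6.34, and 1 of them passed the threshold. At most 1 of the 10 was at 0 counts in any library. In the same comparison all 7 excitatory neuron markers (median −0.83) and all 8 striatal genes (median −0.80) were lower in P301S Tia1+/-, while 5 of 9 interneuron markers were higher and 4 lower, and none of these passed the threshold. With the bulb gene level added to the model, the log2 fold change of P301S Tia1+/- against PS19 was −0.22 in Grb2 (adjusted p = 0.494 in edgeR), −0.01 in Mtor (0.986), −0.60 in Erbb2 (0.533) and 0.43 in Pik3r1 (0.152). Those of Egfr (−0.31, adjusted p = 0.423) and Akt1 (0.38, adjusted p = 0.0973) kept their sign. The bulb levels of the PS19 and P301S Tia1+/- libraries do not overlap, so this adjustment takes its slope from differences within the groups, chiefly WT and Tia1+/-.

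**Figure D4:**
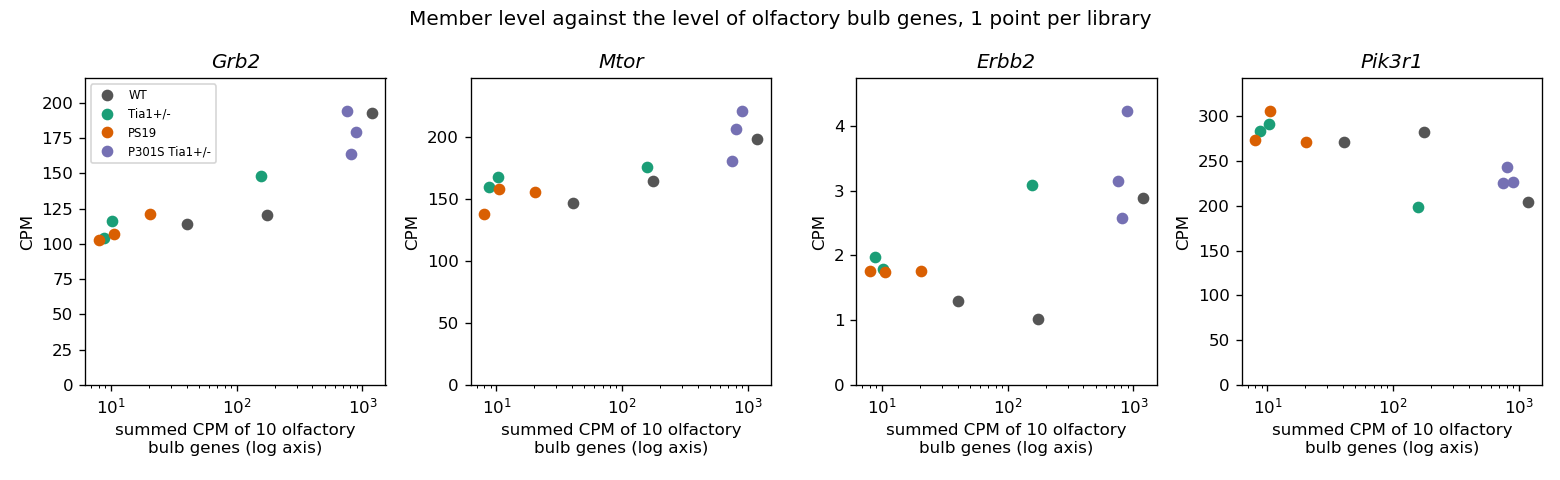
CPM of Grb2, Mtor, Erbb2 and Pik3r1 (vertical axes, from 0) against the summed CPM of 10 olfactory bulb genes (horizontal log axes), with 1 point per library. WT replicate 1, the WT point farthest to the right, lies within the range of the 3 P301S Tia1+/- libraries for Grb2, Mtor and Erbb2 and below it for Pik3r1.

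The promoters of Grb2, Mtor and Pik3r1 are shown because these genes were high or low in the same libraries. RefSeq starts on GRCm38.p6 were at hand for 8 of the 9 members, with 11 starts in all, and Erbb3 had no entry. The CCAAT box, searched as CCAAT on both strands, was found in the 250 bases before the start in both starts of Grb2, in 1 of 2 starts of Pik3r1, in Erbb2 and in Mtor, where it occurred 4 times. Of 32851 RefSeq promoters of this length, 33.8% hold at least 1. The GC box GGGCGG, on either strand, was found 1 time each in Egfr and Pik3ca, 2 times in Mtor, 4 times each in the first start of Pik3r1 and the second of Akt1, and not in Grb2, beside 32.7% of all promoters. The E-box CACGTG was in none of the 11, beside 6.02% of all. Capitals mark CCAAT or its reverse complement, each sequence is written 5′ to 3′ on the strand of the gene, and a match in letters is a description only. The windows are chr11:115699535-115699784 (Grb2, second start, minus strand), chr4:148448332-148448581 (Mtor, plus strand) and chr13:101768218-101768467 (Pik3r1, first start, minus strand).
Grb2: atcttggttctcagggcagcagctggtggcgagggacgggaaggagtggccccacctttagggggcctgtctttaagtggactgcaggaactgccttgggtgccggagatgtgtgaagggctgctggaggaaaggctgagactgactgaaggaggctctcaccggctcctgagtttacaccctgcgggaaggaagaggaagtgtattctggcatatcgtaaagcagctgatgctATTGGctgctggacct
Mtor: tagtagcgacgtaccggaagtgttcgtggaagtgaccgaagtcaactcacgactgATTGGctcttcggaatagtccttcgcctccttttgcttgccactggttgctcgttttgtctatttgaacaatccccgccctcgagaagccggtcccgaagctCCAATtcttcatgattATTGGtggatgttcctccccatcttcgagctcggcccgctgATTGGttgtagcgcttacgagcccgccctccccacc
Pik3r1: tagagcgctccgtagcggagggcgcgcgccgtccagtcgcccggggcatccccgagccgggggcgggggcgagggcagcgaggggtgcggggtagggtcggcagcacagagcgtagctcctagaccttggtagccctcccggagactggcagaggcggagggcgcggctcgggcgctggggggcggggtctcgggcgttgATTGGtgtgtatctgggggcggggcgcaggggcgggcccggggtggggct
Both windows of Grb2 lie inside the longer gene annotated by GENCODE, outside its exons, with a GC content of 57.2% in the one shown, against 54.4% in Mtor, 76.4% in Pik3r1 and a median of 52.4% over all promoters. Which start was used cannot be read from counts per gene.

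The rest of the pathway was described by 69 genes in 6 lists, and 67 of these passed the filter on low counts. None of the 67 passed in any of the 6 comparisons by edgeR, and 10, 15, 17, 14, 9 and 18 of them had an unadjusted p under 0.05, in the order of comparisons used above. The shares of all genes tested were 16.3%, 19.1%, 19.3%, 15.6%, 18% and 22.9%. DESeq2 called 3, 8, 3, 1, 8 and 6 of the 67, beside 2.89%, 6.74%, 5.77%, 2.62%, 7.15% and 8.08% of all genes. In P301S Tia1+/- against PS19, 32 of the 67 were higher and 35 lower, with a median log2 fold change of −0.03 beside 0.01 over all genes tested. By list, 5 of 9 ligands, 7 of 14 adaptors and receptor regulators, 3 of 13 other PI3K and AKT genes, 6 of 13 mTOR complex genes, 5 of 8 AKT substrates and 6 of 10 RAS and MAP kinase genes were higher. The libraries did not overlap for 34 of the 67 in this comparison, beside 38.5% of all genes.

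Map2k1 and Egf were among the pathway genes with the smallest p in P301S Tia1+/- against PS19. Map2k1, a MAP kinase kinase, was at 328, 370.1 and 335 CPM in PS19 and at 542, 493 and 503 in P301S Tia1+/- (log2 fold change 0.57, adjusted p = 0.127 in edgeR and 0.0341 in DESeq2). Map2k1 was higher in every P301S Tia1+/- library than in any PS19 or WT library, and its log2 fold change against WT was 0.64 (adjusted p = 0.0745 in edgeR and 0.0107 in DESeq2). Its highest level was 415 CPM in WT and 438 CPM in Tia1+/-. Egf, a ligand of EGFR, had 13 to 32 counts per library in PS19 and 55 to 86 in P301S Tia1+/- (1.53, adjusted p = 0.143 in edgeR and 0.0464 in DESeq2). In WT, Egf had 13 to 55 counts. Its highest WT level, 4.40 CPM, lay within the range of P301S Tia1+/- (3.46 to 5.12 CPM). Pik3r3, a second regulatory subunit of PI3K, was higher in P301S Tia1+/- than in Tia1+/- (0.43, adjusted p = 0.178 in edgeR and 0.0143 in DESeq2), and Phlpp1, a phosphatase of AKT, was lower (−0.44, adjusted p = 0.221 in edgeR and 0.0941 in DESeq2). Pik3r1 was at −0.15 in that comparison (adjusted p = 0.656 in edgeR) and at −0.32 without both libraries (adjusted p = 0.00807, beside 23.4% of all genes called). Without WT replicate 1, edgeR called Map2k1 (adjusted p = 0.0184) and Egf (0.00958) against PS19, beside 10.3% of all genes. In the same setting it called Pik3r3 (0.0226) and Phlpp1 (0.0241) against Tia1+/-, beside 6.11%.

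Apart from Map2k1, the genes named here from comparisons with WT had lower means than in WT, and none passed the threshold in edgeR with 12 libraries, while DESeq2 called each of them. Mdm2, an AKT substrate that targets p53, was at 79.7, 73.7 and 71.6 CPM in WT and at 55.5 to 65.4 in the 9 other libraries. Its log2 fold change was −0.33 in PS19 (adjusted p = 0.159 in edgeR and 0.0238 in DESeq2) and −0.36 in Tia1+/- (adjusted p = 0.0696 in edgeR and 0.00615 in DESeq2). Cdkn1b, the cell cycle inhibitor p27, was lower in PS19 than in WT (−0.51, adjusted p = 0.170 in edgeR and 0.0391 in DESeq2), and its interaction was 0.85 (adjusted p = 0.0684 in edgeR and 0.00505 in DESeq2). Without WT replicate 1 these were −0.30 (adjusted p = 0.334 in edgeR) and 0.64 (adjusted p = 0.0316), the latter beside 1.55% of all genes called. Errfi1, a feedback inhibitor of EGFR, and Sos2, an exchange factor for RAS, were lower in Tia1+/- than in WT (−0.66, adjusted p = 0.0806, and −0.34, adjusted p = 0.0821, in edgeR). Their adjusted p in DESeq2 was 0.0103 and 0.0149. Rps6kb1, the S6 kinase below mTOR, was lower in P301S Tia1+/- than in WT (−0.34, adjusted p = 0.0612 in edgeR and 0.00324 in DESeq2, and −0.37, adjusted p = 0.0250 in edgeR, without WT replicate 1). In the latter setting 10.5% of all genes passed in this comparison. Areg, a ligand of EGFR, rested on 104 counts in WT replicate 1, 20 and 7 in the other WT libraries, 1 to 5 in PS19, 0 to 8 in Tia1+/- and 15 to 31 in P301S Tia1+/-. Its highest library was thus WT replicate 1, which is also the highest for the bulb genes, and the adjusted p of its interaction was 0.0690 in edgeR (0.0748 without WT replicate 1) and 0.00129 in DESeq2. Its adjusted p in PS19 against WT was 0.171 in edgeR and 0.0210 in DESeq2.

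The genes whose log2 CPM followed each member most closely over the 12 libraries were listed as a description of shared libraries, up to 3 for each. The closest were Gprc5b (r = 0.98), 6430571L13Rik (0.98) and Sall1 (0.98) for Grb2, Sept3 (0.98), Tmem178 (0.98) and Tpd52 (0.98) for Pik3r1, and Rfwd2 (0.96), Golph3 (0.96) and Per2 (0.95) for Pik3ca. For Mtor they were Olfr114 (0.96, at a mean of 0.323 CPM), Cacna1d (0.95) and Med12 (0.94), and for Akt1 they were 2810408M09Rik (0.93), Nat8l (0.91) and Tmem200c (0.90). For the receptors they were Abcc1 (0.95), Nrxn2 (0.94) and Setdb2 (0.91) with Erbb3, Cyp2e1 (0.96) and Piezo2 (0.95) with Erbb2, Akap5 (0.91), Lingo3 (0.90) and Galnt13 (0.90) with Erbb4, and Mir377 (0.88), Zfp445 (0.87) and Htr7 (0.85) with Egfr. No member was among the 3 closest genes of another.

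The receptors were also set against the markers of the cell types they are known from, in 4 relations over the 12 libraries. Erbb3 did not follow 10 oligodendrocyte markers (Pearson r = −0.32, adjusted p = 0.616, Spearman rho = −0.14, adjusted p = 0.768, permutation test, raw p = 0.308 and 0.668), and r was 0.12 without the 2 libraries farthest from the median marker level. Egfr did not follow 8 astrocyte markers (r = 0.33, raw p = 0.298, adjusted p = 0.616, rho = 0.18, raw p = 0.574, permutation test, and r = 0.06 without 2 libraries) or 5 oligodendrocyte precursor markers (r = −0.10, raw p = 0.767, rho = −0.15, raw p = 0.636, and r = 0.22 without 2 libraries). By the mean log2 CPM used here, the 9 interneuron markers fell into a lower and a higher set of 6 libraries each. WT replicate 1 had the lowest mean log2 CPM of these markers (5.85) but the highest summed CPM (2296). Its place thus depends on the summary used. Over all 12 libraries Erbb4 did not follow them (r = 0.13, raw p = 0.688, adjusted p = 0.767, rho = 0.10, permutation test, and r = 0.14 without 2 libraries). Within the sets r was 0.72 (exact permutation p = 0.0944, rho = 0.71, exact p = 0.136) in the lower set and 0.10 (exact p = 0.856, rho = 0.03) in the higher set. With the mean of each group removed, r was 0.83 (permutation p = 0.00078, adjusted p = 0.00312 over the 4 relations, rho = 0.73). Without the 2 libraries farthest out, Tia1+/- replicate 3 and WT replicate 1, r was 0.62 (permutation p = 0.0623, rho = 0.54), so the relation was weaker without that pair. The p values after removal of group means are too small. Their permutation treated the residuals as independent, although a mean had been taken out of each group.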

How the data were processed

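Stranded total RNA libraries of 12 mice, 3 per group, were sequenced by the authors. They used Bowtie and TopHat for alignment to mm10 (the submitters' processing notes name TopHat2 2.0.6), followed by featureCounts for gene counts. The gene annotation, strand setting and treatment of reads with several alignments are not given in the sources used here. The deposited values are raw counts, whole numbers per gene symbol, for 24062 genes.

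From these counts, CPM were computed after TMM normalization, and genes were filtered with filterByExpr. Testing used edgeR 4.0.16 (quasi-likelihood F test, R 4.3.3), with all 12 libraries in 1 fit, a mean per group and Benjamini-Hochberg adjustment over 15440 genes in each comparison (threshold 0.05). Intervals of 95% are from the same fit. The correlations used 100000 permutations, or all of them for sets of 6, with scipy 1.17.1. The edgeR, DESeq2 and permutation tests were tried on simulated data first, the permutation test only without removal of group means.

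The design kept edgeR for the main test, and DESeq2 1.42.0, the tool of the study, was an alternative. The others were DESeq2 size factors, no filter on low counts, only the libraries compared, the replicate number as a block, and each library left out. Added after the data were seen were leaving out WT replicate 1 and Tia1+/- replicate 3, a bulb gene covariate and a block over 6 libraries. Members, gene lists and tests were chosen with earlier results of these data known. Named were all 9 members, any pathway gene called, the 3 pathway genes with the smallest p in each comparison, and the 3 genes most correlated with each member, a few of which are not reported here. Exons and positions are from GENCODE on GRCm38, and promoters from RefSeq on GRCm38.p6. The replicate numbers did not pair the libraries: of 18 same-number pairs, 7 had a residual correlation above 0.1 (median −0.06, range −0.54 to 0.35).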

Additional observations from a re-analysis of the deposited data

Results flagged for a closer look

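Akt1 was the only member for which P301S tau went with opposite directions at the 2 Tia1 doses in every library. Each PS19 library was below each WT library, and each P301S Tia1+/- library was above each Tia1+/- library, with log2 fold changes of −0.12 and 0.14. Of all genes tested, 20.8% and 26% did not overlap in these comparisons. The share of all genes with opposite directions in both was not counted, so the pattern cannot be called particular to Akt1. The difference between the 2 log2 fold changes was 0.26 (SE 0.105), with an unadjusted p of 0.0318 and an adjusted p of 0.181 in the edgeR test of the interaction over all genes, so it did not pass the threshold. Between 0.187 and 0.525 was seen over the alternatives, none of which called it. In PS19 and WT the nearest libraries were 128.28 and 128.32 CPM, and the bulb gene level was 8.002 to 20.3 CPM in PS19 against 749 to 891 in P301S Tia1+/-.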

How the results depend on the processing

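The comparisons are given in the order used in the report: PS19 with WT, Tia1+/- with WT, P301S Tia1+/- with PS19, with Tia1+/- and with WT, and the interaction. No member and no pathway gene was called in any of them by edgeR with 12 libraries, and the same held with DESeq2 size factors in edgeR, without the filter on low counts and with a replicate block. The replicate block over the 6 libraries of P301S Tia1+/- and Tia1+/- alone, where all 3 same-number pairs had a residual correlation above 0.1 (0.123, 0.134 and 0.240), called 145 genes and 0 members. The block changed no call of a member.

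DESeq2 called 2 members in P301S Tia1+/- against PS19 and 1 in the interaction, and 3, 8, 3, 1, 8 and 6 pathway genes. The shares of all genes it called were 2.89%, 6.74%, 5.77%, 2.62%, 7.15% and 8.08%. With only the libraries compared, edgeR called 6 members and 18 pathway genes in P301S Tia1+/- against PS19 and 1 pathway gene against Tia1+/-, beside 20.1% and 2.22% of all genes. Without WT replicate 1 and Tia1+/- replicate 3 edgeR called 6, 3, 7 and 2 members in the last 4 comparisons, beside 22.9%, 23.4%, 25.8% and 13.5% of all genes, and 1, 21, 23, 23 and 14 pathway genes in the last 5. In Tia1+/- against WT it called 1.72% of all genes in this setting. With the bulb gene covariate it called 1 member, Pik3ca in Tia1+/- against WT (log2 fold change −0.37) beside 8.85% of all genes, and 7, 9, 5, 6, 7 and 10 pathway genes. The shares of all genes called with this covariate were 5.32%, 8.85%, 6.43%, 7.27%, 8.67% and 7.82%. Leaving out 1 library gave 0 to 2, 0 to 1 and 0 to 4 members in P301S Tia1+/- against PS19, Tia1+/- and WT and 0 in the other 3 comparisons, the calls coming without WT replicate 1, where 10.3%, 6.11% and 10.5% of all genes were called. For pathway genes the ranges were 0 to 4, 0 to 8, 0 to 5, 0 to 10 and 0 to 6 in the last 5 comparisons. Over all genes they were 8 to 497, 6 to 1606, 0 to 956, 9 to 1637 and 0 to 1035. Over all alternatives the number of genes called went from 0 to 822, from 6 to 1367, from 6 to 3569, from 0 to 3646, from 9 to 4021 and from 0 to 2106, against 0, 110, 37, 0, 203 and 1 with 12 libraries. The causes of these shifts were not tested.

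Of the 54 member fold changes, 22 kept their sign under every alternative run. The bulb gene covariate alone reversed 26. In PS19 against WT it gave 0.85 for Erbb3, 0.30 for Grb2, −0.32 for Pik3r1 and 0.14 for Mtor. In Tia1+/- against WT it gave 0.89, 0.30, −0.37 and 0.23 for the same 4 genes. In P301S Tia1+/- against PS19 it gave −0.60 for Erbb2, −0.94 for Erbb3, −0.22 for Grb2, 0.43 for Pik3r1, 0.19 for Pik3ca and −0.0069 for Mtor. Against Tia1+/- the values were −0.69 for Erbb2, −0.97 for Erbb3, −0.22 for Grb2, 0.48 for Pik3r1 and −0.096 for Mtor. Against WT they were −0.087 for Erbb3 and 0.11 for Pik3r1. In the interaction they were −1.85 for Erbb2, −1.83 for Erbb3, −0.52 for Grb2, 0.80 for Pik3r1 and −0.23 for Mtor.

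Without both libraries, Erbb3 was at 0.37 in PS19 against WT and 0.57 in Tia1+/- against WT, where Erbb4 was at −0.14 and Mtor at 0.069, and Pik3ca was at −0.045 in P301S Tia1+/- against Tia1+/-. Egfr in that comparison, at 0.0037 with 12 libraries, was −0.0091 with DESeq2 size factors, −0.0090 with DESeq2, −0.0042 both without the filter and with only the libraries compared, and −0.0078 with the 6-library replicate block.

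Leaving out 1 library turned the sign of small fold changes and of some larger ones, such as the interactions of Erbb2 (0.51 with 12 libraries) and Erbb3 (0.71). In PS19 against WT the range was −0.24 to 0.61 for Erbb2 and −0.60 to 0.38 for Erbb3. In Tia1+/- against WT it was −0.36 to 0.63 for Erbb3, −0.026 to 0.15 for Erbb4, −0.36 to 0.080 for Grb2, −0.088 to 0.20 for Pik3r1, −0.083 to 0.017 for Akt1 and −0.10 to 0.12 for Mtor. For Pik3ca it was −0.094 to 0.030 against PS19 and −0.036 to 0.053 against Tia1+/- in P301S Tia1+/-, for Egfr −0.082 to 0.099 in the latter, and for Erbb3 −0.020 to 0.99 against WT. In the interaction it was −0.19 to 0.017 for Egfr, −0.082 to 0.79 for Erbb2 and −0.026 to 0.96 for Erbb3.

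The correlation of Erbb3 with oligodendrocyte markers was 0.12 without the 2 farthest libraries, that of Egfr with precursor markers was 0.22 without them and 0.48 with group means removed, and that of Erbb4 with interneuron markers was 0.83 with group means removed.

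The depth leaves Erbb2, with 12 to 71 counts, and Erbb3 with 95% intervals more than 1.6 log2 units wide in every comparison, so small differences in them were not detectable. Xist and Y-linked counts follow the Tia1 genotype in these libraries, so sex and genotype cannot be told apart here. The bulb gene level follows the P301S Tia1+/- group and WT replicate 1.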
